A study of Schizosaccharomyces pombe with 39 samples.

Results

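The 10 histone genes of Schizosaccharomyces pombe were followed across 39 RNA-seq libraries in 13 groups of 3. They were selected by name: hta1 and hta2 encode H2A, htb1 encodes H2B, hht1, hht2 and hht3 encode H3, hhf1, hhf2 and hhf3 encode H4, and pht1 encodes the variant H2A.Z. They are 10 of the 6745 genes listed in the count tables, and each one passed the filter on low counts in every comparison. The first 9 are called the core histone genes below.

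Polyadenylated RNA was sequenced, and every strain lacked mst2, the gene of a histone acetyltransferase. In the deletion strain, mst2Depe1D, epe1 was deleted as well. It was sampled untreated as biological replicates 1 and 2, with 3 libraries each. In the degron strain, mst2D epe1-deg, the gene epe1 stood under the nmt81 promoter, which thiamine represses, and encoded a 3xFLAG-tagged protein with an auxin-inducible degron. The same strain carried skp1-OsTIR1 and skp1-AtTIR1-2NLS, the F-box proteins that the degron needs, each under an adh15 promoter at ade6. TN stands for thiamine with 1-naphthaleneacetic acid, an auxin analogue. Epe1 is a JmjC-domain protein that counteracts heterochromatin. The time course sampled the degron strain after 0, 24, 48, 72, 96 and 120 h of TN. In the memory experiment its 5 groups were untreated cells, cells given TN for 120 h, cells that then recovered without TN for 24 h or 48 h, and cells given TN for a second 24 h after the 24 h recovery. All cultures grew in EMMC medium at 32 C. The treatment label of the second depletion reads "-", and the titles, which name the second TN period, were followed.

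Cells without the degron were not sampled under TN in the libraries analysed here, so TN itself and the loss of Epe1 cannot be told apart in any depletion comparison. The labels do not say whether the 3 libraries of a group came from separate cultures, and p-values then measure only the spread between these samples, which may be technical. For the deletion strain the titles number 3 repeats within each biological replicate. Its p-values therefore do not measure the spread between biological replicates. In bulk RNA, fewer cells in a phase of the cell cycle and less histone RNA per cell cannot be told apart.

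Nucleosomes hold a pair each of H2A, H2B, H3 and H4, and dividing cells make most of this protein while DNA is replicated. In fission yeast the core histone genes lie mostly as divergent pairs, their mRNAs are polyadenylated, and their transcripts peak in S phase. A repeated promoter element, the AACCCT box, and the GATA-type factor Ams2 take part in that peak. The hht2 and hhf2 pair has been described as expressed through the whole cell cycle, unlike the other H3 and H4 pairs. H2A.Z replaces H2A in nucleosomes near promoters, where the SWR1 complex places it.

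Upstream of hta2 and of the H3 and H4 genes the box stands as a direct tandem, AACCCTAACCCT, and each divergent pair of these shares 1 copy. The windows are shown because this element is common to 7 genes whose levels are compared below, and absent from the pht1 window. They are RefSeq sequence of build ASM294v3, read 5′ to 3′ in the direction of the box, with the tandem box in capitals.
hta2: atccatcaaAACCCTAACCCTgtatattgc
hhf1 and hht1: ctgcatcaaAACCCTAACCCTgcttttgat
hhf2 and hht2: gtcaatcacAACCCTAACCCTgatttaaga
hht3 and hhf3: tttgatcacAACCCTAACCCTttaattaaa
The hta2 window lies at chrI:4053362-4053391 on the minus strand. That of hhf1 and hht1 lies at chrI:4699643-4699672 on the plus strand. Those of hhf2 and hht2 and of hht3 and hhf3 lie at chrII:1365051-1365080 on the minus strand and at chrII:3529618-3529647 on the plus strand. Relative to the RefSeq gene starts all 4 windows are intergenic. In the build named with the counts, ASM294v2, the models of hta2, hht2 and hht3 reach further upstream, and their 5′ ends include the window.

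Over the 30 bases, 17 positions were identical in all 4 windows. These were the 12 bases of the box and 5 of those before it, and none of those after it. The tandem was searched on both strands in the 250 bases before the start of 5110 protein-coding genes, leaving out hta1 and htb1, and 18 of these windows (0.352%) held it, 7 of them upstream of core histone genes. A single AACCCT, which the tandem contains, was in 422 windows (8.26%). The longer ATCANAACCCTAACCCT was in 8 windows (0.157%), those 7 and that of bdf2, whose product is a bromodomain protein. The pht1 window held neither form of the box. GATA, the core of the sequence that GATA factors bind, was in 4556 windows (89.2%), in 6 of the 8 histone windows searched and in neither the hht3 nor the hhf2 window.

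**Figure D1:**
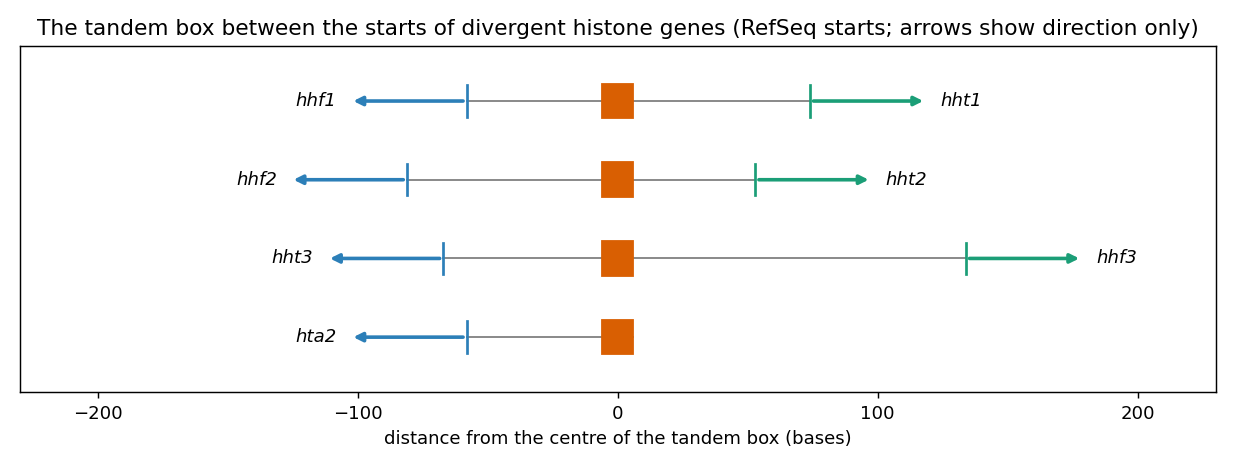
Position of the tandem box (orange square) between the RefSeq starts (ticks) of the histone genes that share it, in bases from the centre of the box. The box lies 52 bases from hhf1 and 68 from hht1, 75 from hhf2 and 47 from hht2, 61 from hht3 and 128 from hhf3, and 52 from hta2.

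In the box map the distances between divergent starts are 132 bases for hhf1 and hht1, 134 for hhf2 and hht2 and 201 for hht3 and hhf3. The coding sequences of the copies are similar, 88.3% to 92.7% identical among the H3 genes, 91.3% to 93.3% among the H4 genes and 86.5% between hta1 and hta2. That of pht1 was 57.5% identical to hta1 and 58.7% to hta2. Even so, no stretch of 50 bases was shared by 8 of the 10 transcripts with any other gene. The exceptions were hhf2 and hhf3, which shared 6 such stretches (0.803% and 1.05% of those in each gene).

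In the annotation of the counts (ASM294v2), hta1 (SPCC622.08c) lies at chrIII:1411144-1412214 on the minus strand and htb1 (SPCC622.09) at chrIII:1412387-1413677 on the plus strand. The gene hta2 (SPAC19G12.06c) lies at chrI:4052446-4053397, minus. On the same chromosome hhf1 (SPAC1834.03c) lies at chrI:4698773-4699544, minus, and hht1 (SPAC1834.04) at chrI:4699691-4700560, plus. The pair hhf2 (SPBC8D2.03c) and hht2 (SPBC8D2.04) lies at chrII:1364189-1365043, minus, and chrII:1365041-1365818, plus. The genes hht3 (SPBC1105.11c) and hhf3 (SPBC1105.12) lie at chrII:3528800-3529657, minus, and chrII:3529657-3530388, plus, and pht1 (SPBC11B10.10c) at chrII:1502203-1503468, minus. Reads over an overlap of 2 annotated genes were counted for both genes whatever the strand. The antisense RNA gene hta1-antisense-1 covers hta1 whole and exceeded it by 10 to 99 counts, and hhf3-antisense-1 covers hhf3 whole and exceeded it by 2 to 161 counts, so sense and antisense reads of these 2 genes cannot be told apart. The gene sec5, which encodes an exocyst subunit, covers 258 of the 1291 bases of htb1, and its own counts amounted to 9.53% to 31.8% of those of htb1. Smaller overlaps were those of SPNCRNA.1432 with 9.2% of hhf2, of hhf3-antisense-1 with 6.9% and of rav1 with 5.4% of hht3.

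The totals of counted reads lay between 20347886 and 26976973 for time course libraries, between 20733636 and 27900659 for the deletion strain, and between 14781022 and 21626064 for the memory experiment. Counts of epe1 outside the overlapping gene prl67, scaled to CPM with TMM-adjusted library totals, averaged 17.2 ± 1.23 and 17.1 ± 1.99 in the 2 deletion groups and 29.9 to 38.5 CPM at 24 to 120 h, against 79.4 ± 7.48 CPM at 0 h (SD, n = 3). In the memory experiment they were 26.8 ± 2.598 CPM after 120 h and 16.7 ± 3.53 CPM in the second depletion, against 113 ± 6.98 CPM in untreated cells. The deviation of genes from their mean over all libraries of the experiment followed GC content in the memory experiment, with Spearman rho between -0.593 and 0.676 per library, beside -0.140 to 0.148 in the time course. This trend moved with the comparison of the second depletion and untreated cells, whose libraries did not overlap in it. By group, rho was -0.00562, 0.676 and 0.544 in the second depletion and -0.108, -0.561 and -0.593 after 120 h, against -0.473, -0.509 and -0.459 in untreated cells. It was positive in 4 memory libraries, replicates 2 and 3 of the second depletion, replicate 3 of the 48 h recovery (0.643) and replicate 2 of the 24 h recovery (0.249). Replicate 2 of the second depletion had the lowest total and a TMM factor of 0.575, against 0.801 to 1.01 in the other 14 memory libraries. Counts of histone genes called in the memory experiment are given with and without it.

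At 0 h the core histone genes together took 0.585 ± 0.0412% of all counts (SD, n = 3). Per kilobase of gene length, htb1 was the most abundant at 1171 ± 88.8 CPM per kb, followed by hht2 at 923 ± 41.2, hht1 at 774 ± 96.2, hhf1 at 716 ± 45.4, hta2 at 674 ± 46.4 and hht3 at 649 ± 38.2 CPM per kb. The genes hta1, hhf3 and hhf2 followed at 448 ± 29.3, 443 ± 49.3 and 352 ± 11.2 CPM per kb. The variant gene pht1 was lowest at 97.3 ± 2.52 CPM per kb. Neighbours in this order whose libraries overlapped were hht1 and hhf1, hhf1 and hta2, hta2 and hht3, and hta1 and hhf3. Summed by protein, the RNA level was 2346 ± 117 CPM per kb for H3, 1511 ± 99.6 for H4, 1171 ± 88.8 for H2B and 1123 ± 75.7 for H2A.

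The hht2 and hhf2 pair rose at 48 h of depletion. Both genes passed the test there under every library left out and every other setting tried, and no other histone gene did. In all, 4 of the 10 histone genes rose at 48 h and none fell, where 25.6% of all genes tested rose (48% changed either way). The gene hht2, 1 of 3 that encode H3, stood at 1203, 1272 and 1104 CPM at 48 h, against 699.8, 755 and 699 CPM at 0 h (log2 change 0.73, SE 0.13, adjusted p = 3.52e-04). Its H4 partner hhf2 stood at 515, 582 and 480.3 CPM at 48 h, against 290.3, 309 and 303 CPM at 0 h (log2 change 0.80, SE 0.17, adjusted p = 0.00119). For both genes all 3 libraries at 48 h lay above all 3 at 0 h.

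Of the other H3 and H4 genes, hht3 alone passed the test at 48 h. The gene hht1 was at 608, 680.2 and 618 CPM at 48 h, against 621, 629 and 769.9 CPM at 0 h (log2 change -0.09, SE 0.16, adjusted p = 0.692). Its partner hhf1 was at 585, 689.9 and 564 CPM, against 517, 553 and 587 CPM (log2 change 0.15, SE 0.18, adjusted p = 0.523), and hhf3 had a log2 change of 0.03 (adjusted p = 0.904). In hht1 and hhf1 the libraries of both times overlapped. The pair of hhf3, hht3, was at 715, 843 and 726 CPM at 48 h, against 546, 531 and 594 CPM at 0 h (log2 change 0.45, SE 0.18, adjusted p = 0.0492), with no overlap between the times, and kept its call in 5 of 18 fits that left out 1 library. The H2B gene htb1 was at 1880.5, 2211 and 2010.1 CPM at 48 h, against 1415, 1480.2 and 1638 CPM at 0 h (log2 change 0.43, SE 0.15, adjusted p = 0.0281). It kept its call in 14 of 18 such fits and lost it with offsets for GC content. The H2A genes hta1 and hta2 had log2 changes of 0.19 (adjusted p = 0.215) and 0.16 (adjusted p = 0.387).

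**Figure D2:**
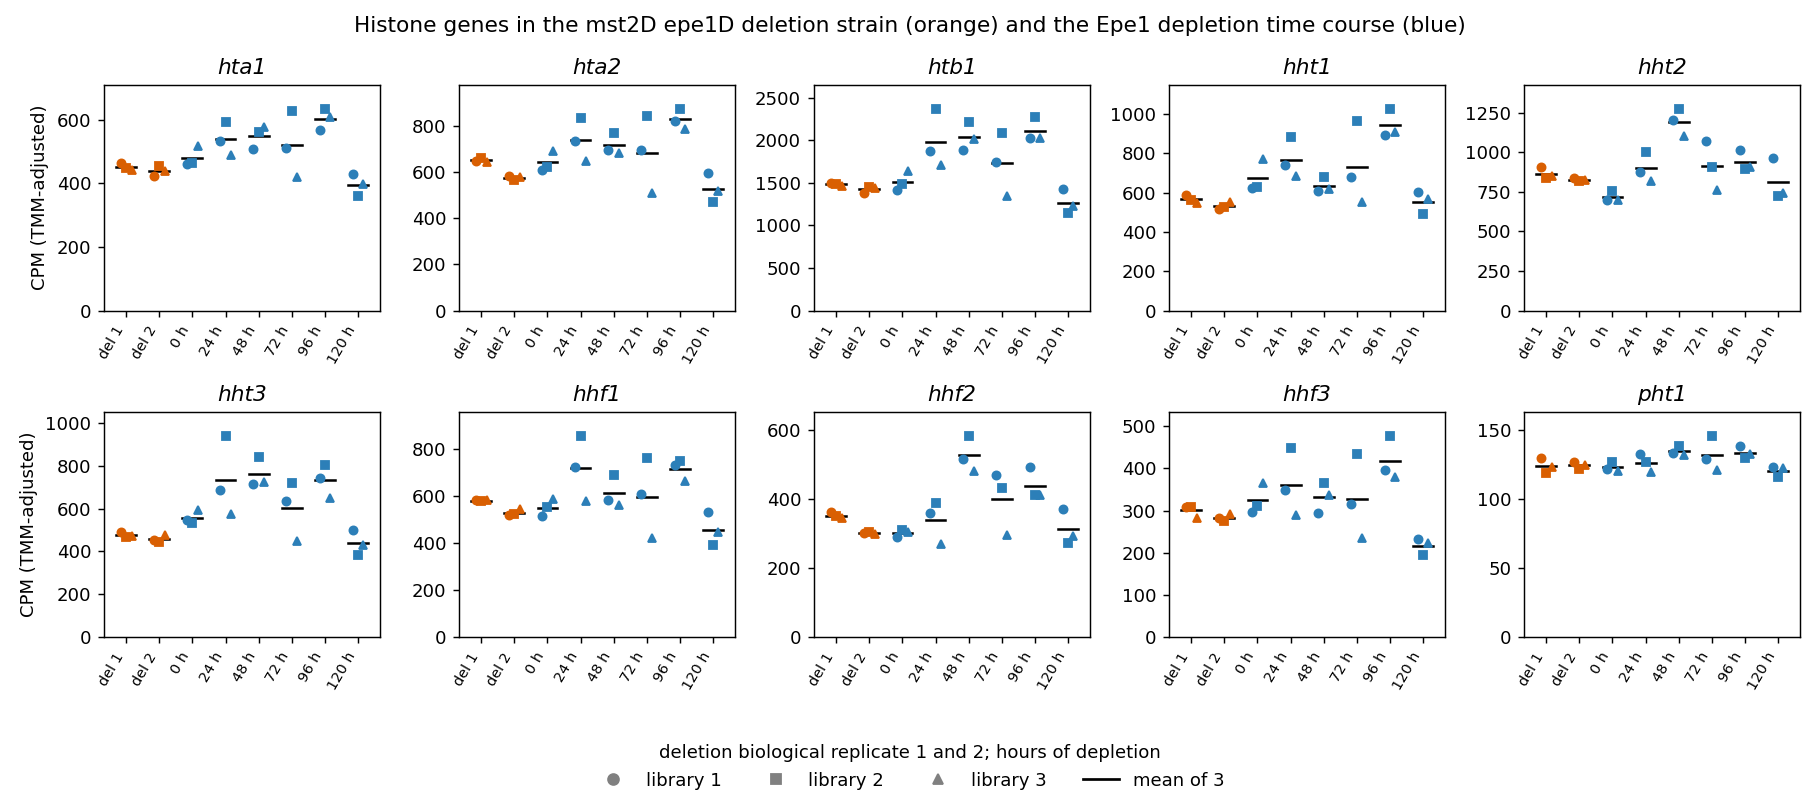
Level of each histone gene in CPM with TMM-adjusted totals in the deletion strain (orange, biological replicates 1 and 2) and in the time course (blue, hours of depletion). Symbols are libraries and bars are means of 3, and hht2 and hhf2 stand highest at 48 h. The libraries of 120 h lie below all those of 96 h in every panel other than hht2.

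The composition of the H3 and H4 transcripts shifted at 48 h. The share of hht2 in the summed H3 level per kilobase was 50.2, 48.1 and 47.7% in the 3 libraries at 48 h, against 39.98, 41.97 and 36.3% at 0 h. The share of hhf2 in H4 was 34.2, 32.8 and 32.1% at 48 h, against 23.98, 24.1 and 21.96% at 0 h. Neither share overlapped between these times, and over the whole time course the hhf2 share was highest in the 3 libraries of 48 h. In CPM, the log2 ratio of hht2 to hht1 was 0.91 ± 0.07 at 48 h and 0.10 ± 0.21 at 0 h (SD, n = 3 each). That of hhf2 to hhf1 was -0.22 ± 0.03 and -0.88 ± 0.07. Between the 2 partners of the pair the log2 ratio of hht2 to hhf2 was 1.18 ± 0.05 at 48 h and 1.25 ± 0.04 at 0 h, a smaller difference than between the copies. Shares and ratios have no test here.

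The shares then moved apart from the levels. The mean hht2 share of H3 from 0 h to 120 h, in order of the 6 times, was 39.4 ± 2.87, 40.1 ± 2.04, 48.7 ± 1.37, 43.6 ± 5.37, 38.4 ± 2.89 and 47.6 ± 2.02% (SD, n = 3). At 120 h this share was again above every library of 0 h in all 3 libraries. The mean hhf2 share of H4, in the same order, was 23.3 ± 1.195, 21.8 ± 1.01, 33.02 ± 1.06, 27.9 ± 3.44, 25.5 ± 2.52 and 29.03 ± 1.23%. The division of H2A between hta1 and hta2 moved little: hta1 made up 37.7% to 42.8% of H2A in all 24 libraries of the time course and the deletion strain. The counts of hta1 take in any antisense reads over the gene.

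**Figure D3:**
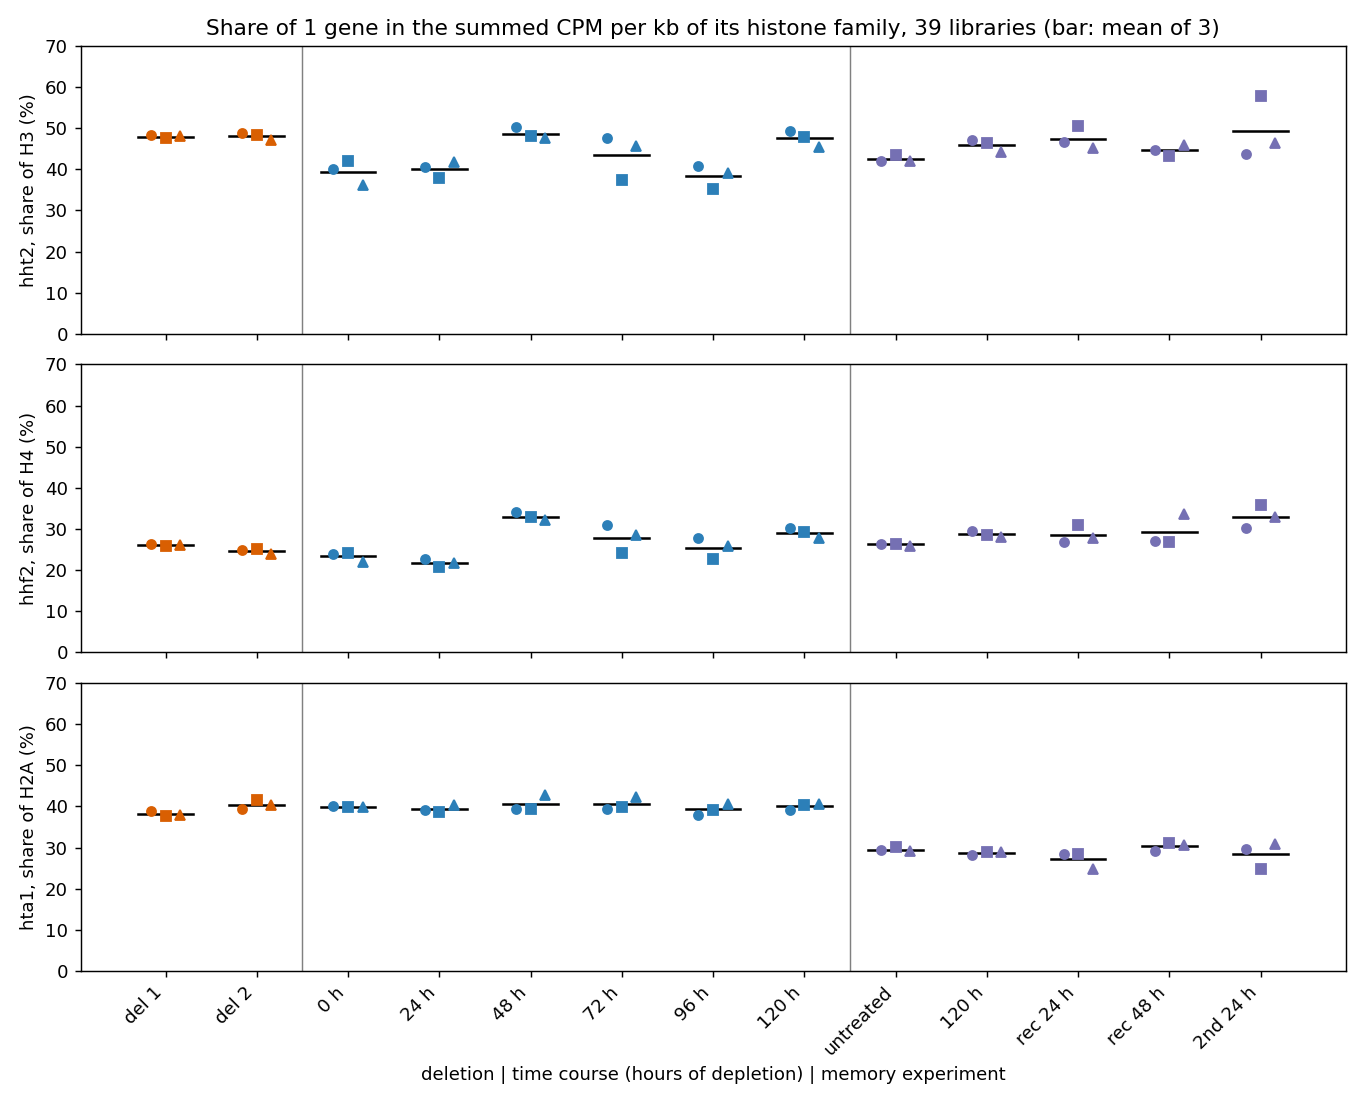
Share in percent of hht2 in H3, of hhf2 in H4 and of hta1 in H2A, each from CPM per kb, in all 39 libraries (circle, square and triangle: libraries 1 to 3; bar: mean of 3). The hhf2 share at 48 h (32.1% to 34.2%) lies above that at 0 h (21.96% to 24.1%), and the hta1 share is 24.7% to 31.2% in the memory experiment, below every library of the time course.

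At 24 h the fitted levels of the core histone genes were slightly higher, and 1 gene was called. All 9 core genes had log2 changes above 0 against 0 h, between 0.16 and 0.40, with a median of 0.20 beside 0.02 for all genes tested. Only htb1 passed the test, where 20.5% of all genes rose (37.7% changed either way). It was at 1871, 2365 and 1710.2 CPM at 24 h, against 1415, 1480.2 and 1638 CPM at 0 h (log2 change 0.39, SE 0.15, adjusted p = 0.0499). The groups did not overlap, yet the call was lost in 14 of the 18 fits that left out 1 library. The largest other changes were those of hht3 at 0.40 (adjusted p = 0.0899) and hhf1 at 0.38 (adjusted p = 0.112).

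Between 24 h and 48 h, hhf2 rose while hht1 and hhf1 had values below 0. Of the 10 genes, hhf2 alone passed the test of this step, where 4.73% of all genes rose (6.6% changed). It was at 515, 582 and 480.3 CPM at 48 h, against 358, 387 and 271 CPM at 24 h (log2 change 0.63, SE 0.17, adjusted p = 0.034). The values for hht2, hht1 and hhf1 in this step were 0.41 (adjusted p = 0.0749), -0.27 (adjusted p = 0.365) and -0.24 (adjusted p = 0.507). The groups of hht2 and of hhf2 did not overlap, and the hhf2 call was kept in 13 of the 18 fits that left out 1 library.

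At 72 h the replicates differed among themselves. The summed core histone counts made up 0.71, 0.827 and 0.533% of the library at 72 h, with replicate 3 below every library of 0 h and replicate 2 above every one. No histone gene passed edgeR's quasi-likelihood test against 0 h, where 15.8% of all genes did. At an unadjusted p under 0.05 there were 2, and DESeq2 also called 0. Same-numbered libraries of 0 h and 72 h deviated together, and with the replicate number as a block hht2 passed (log2 change 0.33, adjusted p = 0.0408). In the step from 48 h to 72 h, which was paired in the same way, 0 genes passed without the block, where 16.9% of all genes did, and 2 did at an unadjusted p under 0.05. With the block hht2 and hhf2 fell by 0.39 and 0.42 on the log2 scale (adjusted p = 0.0196 and 0.0410).

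At 96 h all 9 core genes were again above 0 h, by 0.33 to 0.54 on the log2 scale (median 0.38, beside 0.00274 for all genes). Those that passed were htb1 and hhf2, where 7.56% of all genes rose (12.5% changed either way). The gene htb1 was at 2020.4, 2267 and 2032 CPM at 96 h, against 1415, 1480.2 and 1638 CPM at 0 h (log2 change 0.48, SE 0.15, adjusted p = 0.0479). The gene hhf2 was at 492, 411 and 411 CPM at 96 h, against 290.3, 309 and 303 CPM at 0 h (log2 change 0.54, SE 0.17, adjusted p = 0.0466). Neither overlapped between the times, yet htb1 kept its call in 6 and hhf2 in 5 of the 18 fits that left out 1 library. At an unadjusted p under 0.05 there were 7 histone genes, DESeq2 called 5, and 6 passed in edgeR without the libraries of 72 h. The shares of all genes above are those of the main fit, and those under these alternatives are not given here. In the step from 72 h to 96 h, 0 passed, where 1.22% of all genes did, with 1 at an unadjusted p under 0.05.

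Core histone transcripts were lower at 120 h than at 96 h. In this step 7 of the 10 genes fell and none rose, where 5.99% of all genes fell (7.92% changed). The median change of the 9 core genes was -0.65 on the log2 scale, beside 0.01 for all genes. The H4 gene hhf3 was at 232, 196 and 224 CPM at 120 h, against 396, 477 and 379 CPM at 96 h (log2 change -0.94, SE 0.19, adjusted p = 0.0101). The H3 gene hht1 was at 601, 491 and 567 CPM at 120 h, against 892, 1024 and 907 CPM at 96 h (log2 change -0.77, SE 0.17, adjusted p = 0.0128). The H2B gene htb1 was at 1429.5, 1149 and 1225 CPM at 120 h, against 2020.4, 2267 and 2032 CPM at 96 h (log2 change -0.73, SE 0.15, adjusted p = 0.00988). In these 3 genes every library of 120 h lay below every library of 96 h.

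The H2A genes fell by similar amounts. The gene hta1 was at 430.5, 359 and 398 CPM at 120 h, against 567, 634 and 609 CPM at 96 h (log2 change -0.61, SE 0.12, adjusted p = 0.00988). The gene hta2 was at 595, 469.9 and 517 CPM at 120 h, against 823, 873 and 789 CPM at 96 h (log2 change -0.65, SE 0.15, adjusted p = 0.0163). The genes hht3 and hhf1 fell by 0.74 (adjusted p = 0.0214) and 0.65 (adjusted p = 0.0429) on the log2 scale. The pair that rose at 48 h did not pass in this step: hhf2 had a log2 change of -0.49 (adjusted p = 0.086) and hht2 of -0.21 (adjusted p = 0.35). Whether the pair changed less than the others was not tested.

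Whether these 7 genes passed depended on single libraries. In all 7, every library of 120 h lay below every library of 96 h. Without replicate 2 of 120 h, the lowest library for all 9 core genes at that time, 0 genes passed, with log2 changes of -0.54 for hta1, -0.67 for htb1, -0.69 for hht1 and -0.87 for hhf3, the lowest adjusted p being 0.0565. Without replicate 2 of 96 h, 2 passed (hta1 and htb1), and without replicate 3 of 120 h, 4 did. Without the 72 h libraries 8 passed. The shares of all genes that fell in these fits are not given here. Against 0 h, 0 genes passed at 120 h, where 14.1% of all genes did, 2 were at an unadjusted p under 0.05, and DESeq2 called 1. The log2 changes were between -0.58 for hhf3 (adjusted p = 0.058) and 0.18 for hht2 (adjusted p = 0.43), with 7 of 9 core genes below 0. The core histone counts were 0.512 ± 0.0501% of the library at 120 h, against 0.805 ± 0.0464% at 96 h.

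In the deletion strain, hht2 was higher and hht1 and hht3 lower than in the untreated degron strain at 0 h, and each of the 3 genes passed the test in only 1 of the 2 biological replicates. The gene hht2 was at 906, 839 and 848 CPM in biological replicate 1 and 835, 819 and 825 CPM in biological replicate 2, against 699.8, 755 and 699 CPM at 0 h. It passed the test in replicate 1 (log2 change 0.27, SE 0.09, adjusted p = 0.041) and not in replicate 2 (log2 change 0.20, SE 0.09, adjusted p = 0.115). All 6 deletion libraries lay above all 3 libraries of 0 h, and the call was kept in 4 of the 12 fits that left out 1 library. The counts of calls were 1 of 10 up in biological replicate 1, where 17.2% of all genes rose (32.8% changed), and 2 of 10 down in biological replicate 2, where 14.8% fell (31.3% changed).

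The other H3 genes lay on the opposite side. The gene hht1 was at 589.6, 563 and 547 CPM and 518, 525 and 549.6 CPM in the 2 deletion groups, against 621, 629 and 769.9 CPM at 0 h. It fell in biological replicate 2 (log2 change -0.34, SE 0.09, adjusted p = 0.0119) and had a log2 change of -0.25 (adjusted p = 0.0508) in replicate 1. The gene hht3 was at 489, 466 and 473 CPM and 453, 445 and 478 CPM, against 546, 531 and 594 CPM at 0 h, and fell in biological replicate 2 (log2 change -0.28, SE 0.08, adjusted p = 0.0212), with -0.22 (adjusted p = 0.0523) in replicate 1. For both genes every deletion library lay below every library of 0 h, and with 1 library left out the call in biological replicate 2 was kept in 12 of 12 fits for hht1 and in 9 of 12 for hht3. The hht2 share of H3 was 47.9 ± 0.373% and 48.1 ± 0.892% in the deletion groups, against 39.4 ± 2.87% at 0 h (SD, n = 3). The partner hhf2 had log2 changes of 0.23 (adjusted p = 0.0649) and 0.00 (adjusted p = 0.999), and its share of H4 was 26.1 ± 0.305% and 24.7 ± 0.614%, against 23.3 ± 1.195%. The remaining genes had log2 changes between -0.20 and 0.08. The 3 libraries of a deletion group are repeats within 1 biological replicate, so neither the p-values nor the fits with 1 library left out measure the spread between biological replicates. Strain background and count table differ together with the deletion, so their parts cannot be told apart.

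In the memory experiment, all 10 histone genes had lower fitted levels after 120 h of depletion than in untreated cells, and none passed the test. The log2 changes of the 9 core genes lay between -0.42 and -0.11, with a median of -0.29 beside -0.01 for all genes, where 6.15% of all genes were called. By edgeR 1 histone gene was at an unadjusted p under 0.05, and DESeq2 called 0. The gene hht3 had the largest change, with 514, 444 and 532 CPM after 120 h, against 648, 629.8 and 676 CPM in untreated cells (log2 change -0.42, SE 0.21, adjusted p = 0.387). The gene hta1 was at 253, 268 and 276 CPM after 120 h, against 333, 334 and 337 CPM in untreated cells (log2 change -0.36, SE 0.17, adjusted p = 0.342). The groups did not overlap in either gene. Without the 4 libraries of positive GC trend, which are not in these 2 groups but share the estimate of the spread, 6 genes fell. Without replicate 2 of the second depletion alone 2 fell, hta1 (log2 change -0.36, adjusted p = 0.00632) and hhf3 (log2 change -0.29, adjusted p = 0.0301). With only the compared groups in the fit 5 did. The 6.15% belongs to the fit with all libraries, and the shares of all genes called under these other fits are not given here.

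During recovery no histone gene passed against untreated cells with all libraries in the fit. After 24 h without TN, 0 of 10 were called by edgeR, where 3.04% of all genes were, 1 was at an unadjusted p under 0.05 and DESeq2 called 0. Without replicate 2 of the second depletion hta1 fell there (log2 change -0.31, adjusted p = 0.0223), and without the 4 libraries of positive GC trend hta1, hht3 and hhf1 did. After 48 h, 0 were called, also without that replicate, where 2.42% of all genes were, 0 were at an unadjusted p under 0.05 and DESeq2 called 0. The 24 h recovery compared with the 120 h depletion also gave 0 calls, with and without that replicate, where 4.73% of all genes were called, 0 at an unadjusted p under 0.05 and 0 by DESeq2. The shares of all genes in this paragraph belong to the fit with all libraries, and those under other fits are not given here. Replicate 3 of the 48 h recovery stood apart in several genes: hht2 was at 875, 847 and 1256 CPM, hht3 at 624, 619 and 901 CPM and hhf1 at 559, 558 and 449.9 CPM in the 3 libraries of that group. It is 1 of the 4 libraries of positive GC trend.

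**Figure D4:**
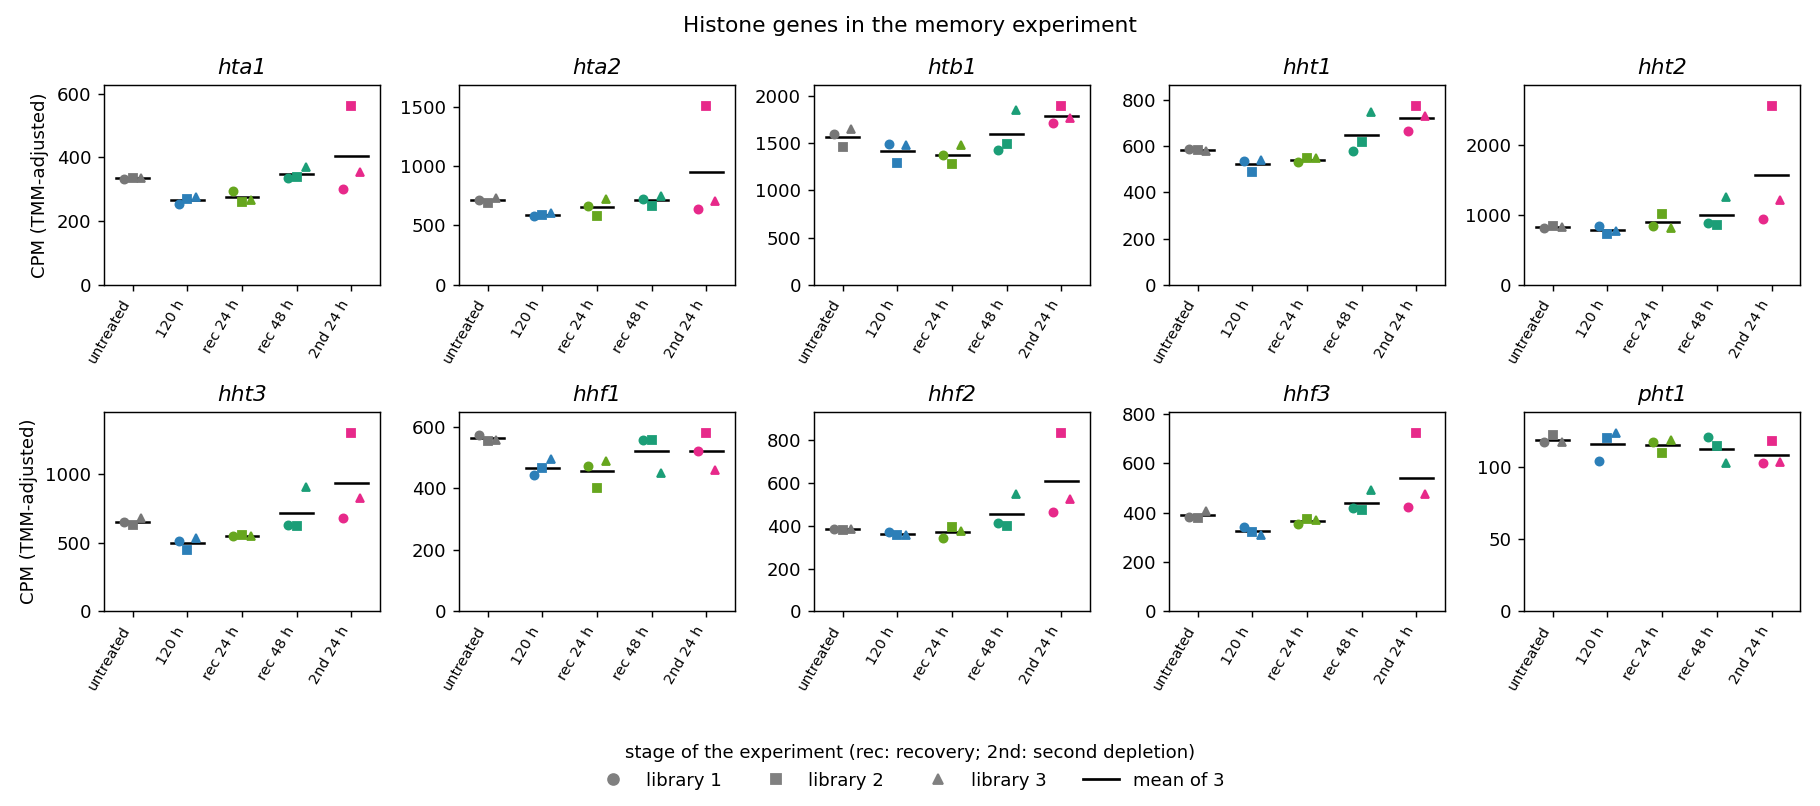
Level of each histone gene in CPM with TMM-adjusted totals in the memory experiment: untreated, 120 h of depletion, 24 h and 48 h of recovery, and a second depletion of 24 h. Symbols are libraries and bars are means of 3, and replicate 2 of the second depletion (pink squares) stands above the other libraries of its group in all 10 panels.

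In the second depletion hht2 and hhf2 were higher than in untreated cells, by a size that rests on 1 library. The call of hht2 was lost without that library. Of the 10 genes 4 rose and none fell, where 22.7% of all genes rose (44.7% changed either way). With only the compared groups in the fit no histone gene passed. The gene hht2 was at 941, 2547 and 1212 CPM in the second depletion, against 809, 843 and 818 CPM in untreated cells (log2 change 0.91, SE 0.29, adjusted p = 0.0251). The gene hhf2 was at 463, 833 and 525 CPM in the second depletion, against 386, 381 and 384 CPM in untreated cells (log2 change 0.64, SE 0.18, adjusted p = 0.015). In both genes all 3 libraries of the second depletion lay above all untreated ones, and replicate 2 lay far above the other 2.

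The other calls were hht1 and hhf3. The gene hht1 was at 666, 772 and 731 CPM in the second depletion, against 586, 582 and 579 CPM in untreated cells (log2 change 0.29, SE 0.11, adjusted p = 0.0446). This direction was lost with plain library totals (log2 change -0.0020) and with offsets for GC content. The gene hhf3 was at 424, 723 and 475 CPM in the second depletion, against 384, 381 and 406 CPM in untreated cells (log2 change 0.45, SE 0.16, adjusted p = 0.0343). The H4 gene hhf1, the partner of hht1, had a log2 change of -0.13 (adjusted p = 0.375), and its groups overlapped.

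Without replicate 2 of the second depletion, hhf2 alone remained (log2 change 0.34, SE 0.11, adjusted p = 0.0392). The values were then 0.36 (adjusted p = 0.108) for hht2, 0.24 (adjusted p = 0.0924) for hht1 and 0.18 (adjusted p = 0.126) for hhf3. That library also carried the strongest GC trend (rho 0.676). Its core histone genes held 0.615% of its counts, beside 0.613% and 0.598% in replicates 1 and 3. Scaled by plain totals its hht2 level was 1464 CPM, beside 910.3 and 1029 CPM in replicates 1 and 3. Plain totals moved the median change of all genes in this comparison by -0.30, and hht2 and hhf2 were then at 0.49 (adjusted p = 0.0281) and 0.28 (adjusted p = 0.00855). The share of hhf2 in H4, which does not depend on the scaling, was 30.2, 35.9 and 33.03% in the second depletion, against 26.3, 26.5 and 25.99% in untreated cells. It was higher in all 3 libraries. Outside the second depletion it was also high in the libraries of positive GC trend, at 30.9% in replicate 2 of the 24 h recovery, beside 26.8 and 27.9% in its replicates 1 and 3, and at 33.8% in replicate 3 of the 48 h recovery, beside 27.2 and 26.7% in its replicates 1 and 2. The GC content of the H4 genes is 37.2% for hhf2, 34.6% for hhf1 and 39.1% for hhf3. With offsets for GC content hhf2 had a log2 change of 0.60 (adjusted p = 0.0127), and without the 4 libraries of positive GC trend, which leaves 1 library in the second depletion, one of 0.26 (adjusted p = 0.0149). That of hht2 in H3 was 43.8, 57.7 and 46.4%, against 42.1, 43.6 and 41.98%. How many of all genes rose under the other fits of this paragraph is not given here.

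Compared with the 24 h recovery that preceded it, the second depletion had 6 of 10 genes higher and none lower, where 16.3% of all genes rose (27.8% changed). These were hta1 at 0.57 (adjusted p = 0.0267), hht1 at 0.43 (adjusted p = 0.0144), hht2 at 0.83 (adjusted p = 0.0486), hht3 at 0.77 (adjusted p = 0.0187), hhf2 at 0.72 (adjusted p = 0.0134) and hhf3 at 0.57 (adjusted p = 0.0194). The H3 gene hht1 was at 666, 772 and 731 CPM, against 529.7, 548 and 547 CPM in the 24 h recovery, with no overlap. The H3 gene hht3 was at 675, 1294 and 822 CPM, against 545, 558 and 544 CPM, also with no overlap. Without replicate 2 of the second depletion hta1, hht1, hhf2 and hhf3 remained. Without replicate 1 or replicate 3 of the 24 h recovery, and with only the compared groups in the fit, 0 were called. With plain totals, which moved the median of all genes by -0.22 here, hht2, hht3, hhf2 and hhf3 passed. The 16.3% belongs to the main fit, and the shares of all genes under these other fits are not given here.

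**Figure D5:**
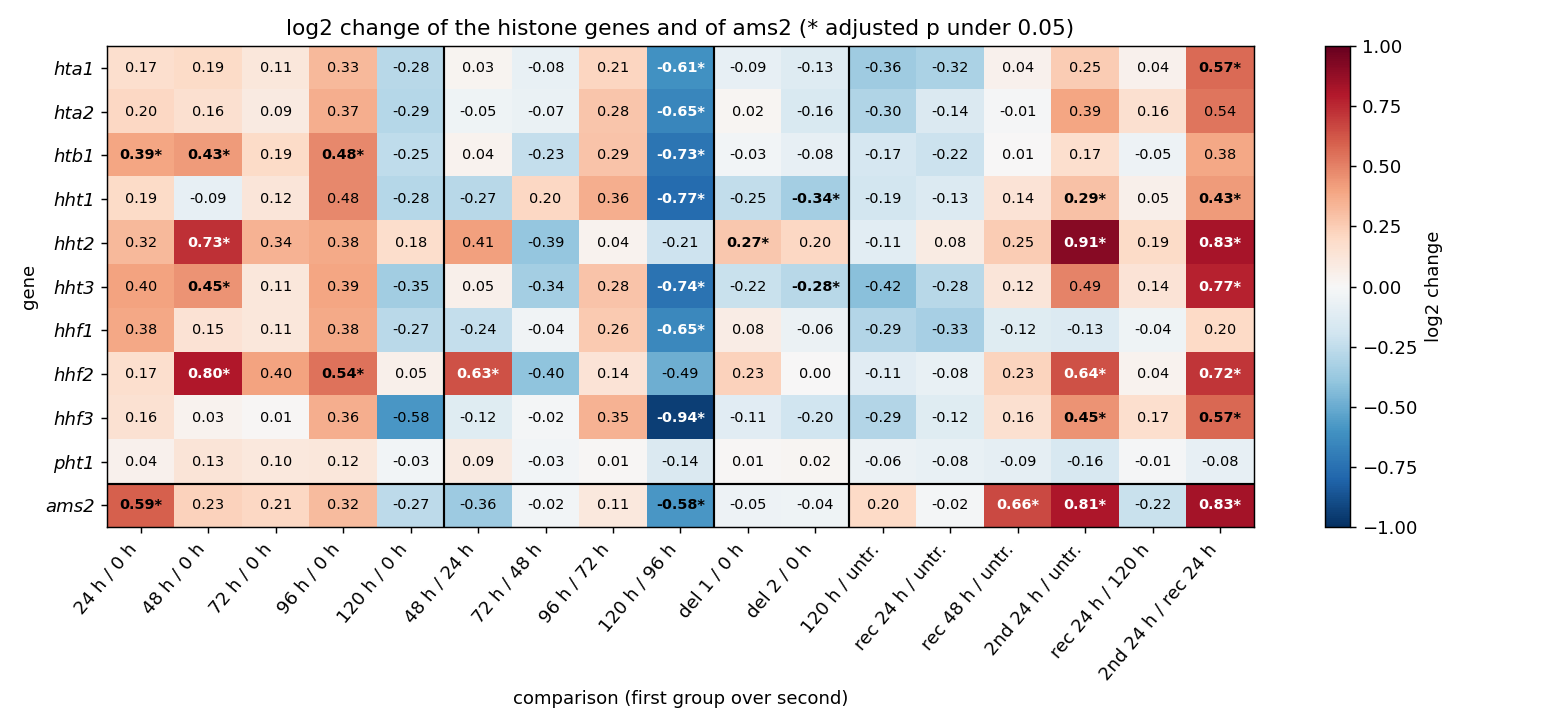
Fitted log2 change of each histone gene and of ams2 in 17 comparisons, first group over second, with an asterisk at an adjusted p under 0.05. The 7 falls from 96 h to 120 h lie between -0.61 and -0.94, hht2 and hhf2 are at 0.73 and 0.80 at 48 h, and no comparison of pht1 has an asterisk.

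The effects of both experiments were then compared directly, each against its own untreated libraries. For 120 h of depletion, memory experiment minus time course, 0 of 10 histone genes were called by edgeR, also without replicate 2 of the second depletion, where 3.81% of all genes were, with 0 at an unadjusted p under 0.05 and 0 by DESeq2. The differences for the core genes lay between -0.27 and 0.30 on the log2 scale. For the second depletion of 24 h minus the first 24 h, 0 were called by edgeR, also without replicate 2 of the second depletion, where 43.4% of all genes were, 1 was at an unadjusted p under 0.05 and DESeq2 called 0. The differences lay between -0.49 and 0.62. With plain totals, which moved the median of all genes by -0.40 here, 3 were called, all below 0. A p that misses the threshold does not show that the effects were equal.

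The division of H2A differed between the experiments. In untreated cells of the memory experiment hta1 made up 29.4, 30.05 and 29.1% of H2A, against 40.1, 39.9 and 39.9% at 0 h of the time course, and the range over all 15 memory libraries was 24.7% to 31.2%. In CPM, hta1 was at 333, 334 and 337 in untreated memory libraries, against 459.7, 465 and 516 at 0 h. The gene hta2 was at 712, 691 and 729.6 CPM in untreated memory libraries, against 611, 622 and 693 CPM at 0 h. The tables of both experiments were made separately, and this difference was not tested. Because the counts of hta1 take in any antisense reads over the gene, it need not be a difference in H2A mRNA.

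The H2A.Z gene pht1 had the narrowest range of the 10 relative to its level, over the 39 libraries. It was at 124 ± 5.29 and 125 ± 2.63 CPM in the deletion groups and between 102 and 146 CPM in all 39 libraries, and it was called in none of the 19 comparisons. In the second depletion it was at 102, 118 and 104 CPM, against 117, 122 and 117 CPM in untreated cells (log2 change -0.16, SE 0.09, adjusted p = 0.14). At 48 h it was at 134, 139 and 132 CPM, against 122, 127 and 121 CPM at 0 h (log2 change 0.13, SE 0.06, adjusted p = 0.107). Relative to the summed H2A level per kilobase, pht1 was at 10.4 ± 0.825% at 120 h, against 7.38 ± 0.534% at 96 h, a step in which the H2A genes fell and pht1 had a log2 change of -0.14 (adjusted p = 0.172).

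Among the regulators, ams2, which encodes the GATA-type factor of histone transcription, rose at 24 h and fell between 96 h and 120 h. Its mean level from 0 h to 120 h, in order of the 6 times, was 88.1 ± 6.08, 133 ± 18.01, 104 ± 13.9, 102 ± 25.1, 109.9 ± 12.8 and 73.4 ± 7.49 CPM (SD, n = 3). The log2 change was 0.59 (adjusted p = 0.00869) at 24 h against 0 h, 0.23 (adjusted p = 0.229) at 48 h against 0 h and -0.58 (adjusted p = 0.0348) at 120 h against 96 h. In the deletion groups it was -0.05 (adjusted p = 0.628) and -0.04 (adjusted p = 0.708). In the memory experiment ams2 rose after 48 h of recovery, to 95.9 ± 8.73 CPM, against 59.9 ± 2.52 CPM in untreated cells (log2 change 0.66, SE 0.08, adjusted p = 8.98e-04), where no histone gene passed. In the second depletion it was at 107 ± 11.6 CPM (log2 change 0.81, SE 0.08, adjusted p = 1.89e-05 against untreated cells). The gene cnp1, which encodes the centromeric H3 variant CENP-A, was called at 96 h (log2 change 0.32, adjusted p = 0.0283) and in none of the other 18 comparisons.

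Of 21 histone gene regulators and chaperones, 2 rose and 3 fell at 24 h (23.8%, where 37.7% of all genes were called), and 3 rose and 7 fell at 48 h (47.6%, where 48% of all genes were). At 72 h 0 were called, at 96 h 1 rose, and at 120 h 1 rose and 1 fell, where 15.8%, 12.5% and 14.1% of all genes were called. In deletion replicate 1, 2 rose and 4 fell (28.6%, where 32.8% of all genes were called), and in replicate 2, 2 rose and 5 fell (33.3%, where 31.3% were). At 48 h scm3, the CENP-A chaperone gene, rose (log2 change 0.43, adjusted p = 0.00206), while pob3, a subunit gene of the FACT complex, fell (log2 change -0.31, adjusted p = 0.00803). The nucleosome assembly gene nap2 fell there (log2 change -0.23, adjusted p = 0.00328), as did pcf3, a subunit gene of chromatin assembly factor CAF-1 (log2 change -0.26, adjusted p = 0.00149). In the second depletion 2 rose and 5 fell against untreated cells (33.3%, where 44.7% of all genes were called), and 3 rose and 3 fell without its replicate 2.

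Of 20 genes of the SWR1 and INO80 complexes and H2A.Z readers, 3 rose and 5 fell at 24 h (40%, where 37.7% of all genes were called), and 3 rose and 9 fell at 48 h (60%, where 48% were). At 72 h 1 rose and 2 fell, at 96 h 2 rose and 2 fell, and at 120 h 1 rose and 1 fell. These were 15%, 20% and 10% of the list, where 15.8%, 12.5% and 14.1% of all genes were called. The INO80 subunit gene iec1 fell at 48 h (log2 change -0.97, adjusted p = 2.73e-07), and the helicase subunit gene rvb2 fell there as well (log2 change -0.38, adjusted p = 7.15e-05). The gene msc1, whose product acts with H2A.Z, rose (log2 change 0.28, adjusted p = 0.00142). The bromodomain gene bdf2, which shares the longer box of those 7 histone genes, rose at 24 h (log2 change 0.36, adjusted p = 0.00241), 48 h (log2 change 0.22, adjusted p = 0.0254) and 96 h (log2 change 0.37, adjusted p = 0.00498) and fell by 0.57 on the log2 scale between 96 h and 120 h (adjusted p = 0.00166). It fell in deletion replicate 1 (log2 change -0.39, adjusted p = 6.40e-04) and replicate 2 (log2 change -0.29, adjusted p = 0.00466). For the complexes' list the second depletion gave 4 up and 3 down against untreated cells (35%, where 44.7% of all genes were called), and 1 up and 2 down without its replicate 2.

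Gene lists of cell cycle phases were counted beside the histone genes. Of 20 genes of the G1/S factor MBF and its targets, 3 rose and 2 fell at 24 h (25%, where 37.7% of all genes were called). At 48 h 2 rose and 2 fell (20%, where 48% were). At 72 h, 96 h and 120 h 0 were called, where 15.8%, 12.5% and 14.1% of all genes were. Among these 20 genes cdt2, a gene of an S-phase ubiquitin ligase, rose at 24 h (log2 change 0.90, adjusted p = 0.00112). It fell by 0.64 between 96 h and 120 h (adjusted p = 0.0335). The DNA repair gene ctp1 rose at 48 h (log2 change 0.37, adjusted p = 0.0211). The MBF genes res1 (log2 change -0.40, adjusted p = 4.95e-05) and rep2 (log2 change -0.49, adjusted p = 0.00414) fell at 48 h. In the second depletion 12 of these 20 rose and none fell against untreated cells (60%, where 22.7% of all genes rose), and also 12 without its replicate 2. The shares of all genes in fits with libraries left out are not given here, for this and the other gene lists. List counts from those fits therefore cannot be set against such a share. After 120 h in the memory experiment 6 rose (30%, where 6.15% of all genes were called either way). This count was 9 without replicate 2 of the second depletion and 12 without the 4 libraries of positive GC trend. After 48 h of recovery 8 rose (40%, where 2.42% of all genes were called and no histone gene was), with 10 and 11 under the same omissions.

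Of 15 mitotic genes, 0 were called at 24 h and at 96 h, where 37.7% and 12.5% of all genes were. At 48 h 3 rose (20%, where 25.6% of all genes rose). At 72 h and 120 h 1 each rose, where 15.8% and 14.1% of all genes were called either way. In each deletion group 5 rose (33.3%, where 32.8% and 31.3% of all genes were called either way). Those of 48 h were the Aurora kinase gene ark1 (log2 change 0.57, adjusted p = 5.90e-04), the Polo kinase gene plo1 (log2 change 0.34, adjusted p = 0.0398) and the forkhead factor gene sep1 (log2 change 0.30, adjusted p = 0.029). In the second depletion 9 rose (60%, where 22.7% of all genes rose), and 8 did without its replicate 2. Of 8 cell separation genes, which act at the end of the cycle, 0 were called at any time of the time course against 0 h. In deletion replicates 1 and 2, 3 and 2 fell (37.5% and 25%, where 32.8% and 31.3% of all genes were called either way). In the memory experiment 5 rose after 120 h (62.5%, where 6.15% of all genes were called either way). All 8 rose after 48 h of recovery, where 2.42% of all genes were called either way, and in the second depletion, where 22.7% rose. These 3 counts were the same without replicate 2 of the second depletion. The part of cell cycle phase in the histone changes was not tested.

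The other 11 genes with the tandem box were SPAC27E2.11C, bdf2, eft201, erg1, hsp90, ppc89, spi1, ssa1, ssa2, tbp1 and tif51. In the time course 9 of them were tested. At 24 h 3 rose, where 20.5% of all genes rose, and at 48 h 3 rose and 1 fell, where 48% of all genes were called. At 72 h and at 120 h 1 rose and 1 fell, where 15.8% and 14.1% of all genes were called. At 96 h 2 rose, where 7.56% of all genes rose, and between 96 h and 120 h 2 fell, where 5.99% fell. Against untreated cells 4 of 10 tested rose in the second depletion, where 22.7% of all genes rose. Their median change at 48 h was -0.24 and that between 96 h and 120 h was -0.03, beside 0.19 and -0.65 for the core histone genes. The gene tbp1, which encodes the TATA-binding protein, rose at 48 h (log2 change 0.81, adjusted p = 1.39e-06), and eft201, a translation elongation factor gene, fell (log2 change -0.29, adjusted p = 0.00877). In each deletion group 0 rose and 3 fell, where 32.8% and 31.3% of all genes were called.

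Across the 18 time course libraries, the log2 level of single core genes followed the mean of the other 8 with Pearson r between 0.614 for hht2 and 0.980 for htb1. The value was 0.713 for hhf2, 0.791 for hht1 and 0.801 for pht1. In the 15 memory libraries r was 0.901 for hht2, 0.953 for hhf2, 0.343 for hhf1 and -0.158 for pht1. All r values of memory libraries include replicate 2 of the second depletion, whose TMM factor was 0.575. They are not given without it, so r in the memory experiment and in the time course cannot be set against each other. These values describe libraries that share strain, groups and scaling, and carry no test. Outside the histone genes, those most like the core mean in the time course were hta1-antisense-1 (r 0.962), sec5 (0.950), hhf3-antisense-1 (0.932), bdf2 (0.875) and rav1 (0.869), of which all but bdf2 overlap a histone gene and count part of its reads. In the memory libraries r was 0.952 for hta1-antisense-1, -0.220 for sec5, 0.983 for hhf3-antisense-1, 0.727 for bdf2 and -0.688 for rav1. Those most like pht1 in the time course were ctp1-antisense-1 (0.818), SPNCRNA.1246 (0.782), ctp1 (0.780), hta1-antisense-1 (0.759) and gas1 (0.748). In the memory libraries only SPNCRNA.1246 of these 5 had an r above 0.1 (0.729).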

How the data were processed

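Libraries were made from polyadenylated RNA. The authors deposited 3 tables of raw gene counts with a column for each library, named as counts per the file headers. Build ASM294v2 is named per the file headers, and STAR and Trimmomatic per the submitters' processing notes, which give no roles. The counting tool and the use of strand are not given in the sources used here. The column index within a group was read as the replicate number, and 6 other count columns with no match among the labelled libraries were left out.

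Counts were tested in R 4.3.3 with edgeR 4.0.16: TMM factors, the filterByExpr filter, quasi-likelihood fits with the robust option, F-tests (2-sided) and Benjamini-Hochberg adjustment over all genes tested in a comparison, called at an adjusted p under 0.05. Each adjusted p given without another tool is from this test. There were 19 comparisons in 4 fits: the time course (6664 genes tested), the memory experiment (6485), the deletion strain fitted with time course libraries of 0 h and 120 h (6581), and a joint fit of the degron experiments for differences of effects (6528). Fold changes are first group over second. Levels in CPM use TMM factors over all 39 libraries, and levels per kilobase use the gene length of the files' annotation. The fits were also run on simulated counts. These held no GC trend, no library that stands apart and no pairing, so those runs do not cover these features of the data. Pearson r used log2 of CPM plus 0.5, for genes of at least 5 CPM.

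Sequences, gene starts and GC content came from RefSeq build ASM294v3. Of 6745 gene identifiers 6626 matched it, and 99.5% of these had at least 1 end at the same coordinate in both builds. All 10 histone genes matched. The histone genes and the gene lists were chosen with earlier results of these data known. Named were all 10 histone genes, every gene that overlaps one, ams2, cnp1 and epe1, up to 4 genes per list called at most times of the time course, and the 5 genes most like the core mean and most like pht1. The genes with the tandem box were named because they hold it. The upstream sequence of hta1 and htb1 is not reported here.

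Same-numbered libraries deviated together, with every correlation over 0.1, for 72 h against 0 h (0.161 to 0.188), 48 h to 72 h (0.402 to 0.657) and 72 h to 96 h (0.195 to 0.447), and the replicate block is given beside those results where it changed a call. The hint of pairing comes from the data, not from the labels. No pair of libraries within a group agreed within sampling noise (lowest chi-squared per degree of freedom 3.40 over 39 pairs). Alternatives were DESeq2 size factors, the DESeq2 1.42.0 test, no filter, the compared groups only, the replicate block, GC offsets, both of these together, and each library left out. Plain library totals, and fits without the 72 h libraries or the 4 memory libraries of positive GC trend, were added after the data were seen.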

Additional observations from a re-analysis of the deposited data

How the results depend on the processing

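Counts of histone genes called moved with the settings, and with plain totals the log2 values in the second depletion moved as well. With DESeq2 size factors the counts were 0 at 24 h and 3 in deletion replicate 1, and with no filter on low counts 0 and 3. The DESeq2 test gave 5 at 96 h, 1 at 120 h, 2 from 24 h to 48 h, 1 from 48 h to 72 h and 4 in deletion replicate 1. GC offsets gave 0 at 24 h, 2 at 48 h, 1 each at 96 h and 120 h, 2 in deletion replicate 1, 2 after 120 h in the memory experiment, 1 after 24 h of recovery and 2 in the second depletion against untreated cells. GC offsets with the replicate block gave 0 at 24 h, 1 at 120 h, 2 from 24 h to 48 h, 2 from 48 h to 72 h, 2 in deletion replicate 1, and 1, 1 and 2 in the same 3 memory comparisons. The replicate block alone gave 2 at 24 h, 1 at 72 h, 1 at 120 h, 2 from 24 h to 48 h, 2 from 48 h to 72 h, 2 in deletion replicate 1 and 2 in the second depletion against untreated cells. Outside the 3 paired comparisons the correlations of same-numbered libraries were not all over 0.1 (-0.0936 to 0.316 for 24 h, 0.0385 to 0.261 for 48 h). Weaker pairing in those comparisons was not tested. The block changed no count other than those named by over 1.5 times.

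With only the compared groups in the fit the counts were 2 at 24 h, 8 at 96 h, 1 at 120 h, 0 from 24 h to 48 h, 4 in each deletion group, 5 after 120 h in the memory experiment, 3 after 24 h of recovery, and 0 in the second depletion against untreated cells and against the 24 h recovery. Plain totals gave 4 at 24 h, 2 at 72 h, 4 at 96 h, 2 from 24 h to 48 h, 1 from 48 h to 72 h, 2 in deletion replicate 1, and 2, 1 and 2 after 120 h, after 24 h of recovery and in the second depletion of the memory experiment. They gave 3 in the difference between second and first depletion, and moved the median of all genes by -0.12 between 24 h recovery and 120 h. Without the 72 h libraries there were 3 at 24 h, 6 at 96 h and 1 at 120 h. Without the 4 memory libraries of positive GC trend there were 6 after 120 h, 3 after 24 h of recovery, 1 between 24 h recovery and 120 h, and 1 in the second depletion against untreated cells. The share of all genes called under each setting of this section is not given here, so these counts cannot be set against such a share. The cause was not tested.

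Leaving out each library in turn gave, against 0 h, 0 to 2 calls for 24 h, 2 to 4 for 48 h, 0 to 2 for 72 h, 0 to 4 for 96 h and 0 to 1 for 120 h. For the steps it gave 0 to 2 from 24 h to 48 h, 0 to 1 from 48 h to 72 h, 0 to 0 from 72 h to 96 h and 0 to 8 from 96 h to 120 h. It gave 0 to 4 and 1 to 5 in the deletion groups. In the memory experiment it gave 0 to 2 after 120 h, 0 to 1 after 24 h and 0 to 0 after 48 h of recovery, 0 to 0 between 24 h recovery and 120 h, 1 to 7 in the second depletion against untreated cells and 0 to 8 against the 24 h recovery. For the differences of effects it gave 0 to 0 at 120 h and 0 to 2 for the second against the first depletion. The 1 change of sign among called values was that of hht1 in the second depletion against untreated cells, at -0.0481 with GC offsets, -0.0527 with GC offsets and the replicate block and -0.0020 with plain totals. Groups of 3, and the spread among the 72 h and second depletion libraries, limit what these comparisons can show, while counting error is small at the counts of the core genes.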
